A study of Mus musculus with 6 samples.

Results

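The S100 genes encode small calcium-binding proteins, and 10 of them were followed in dental epithelial organoids (DEOs). The 10 genes were taken by gene symbol from the authors' table of 47360 symbols: S100a3, S100a4, S100a6, S100a8, S100a9, S100a10, S100a11, S100a13, S100a14 and S100a16. DEOs were grown for 14 days in Matrigel from adult dental epithelial stem cells of the incisor's apical bud, taken from 9-week-old female wild-type C57BL/6J mice. All media shared 50% Wnt3a-conditioned medium, 5% R-spondin1-conditioned medium, EGF at 100 µg per ml, the ROCK inhibitor Y27632 at 10 µM, N-acetylcysteine at 1 mM and, in the libraries used here, Noggin at 200 µg per ml. The +N medium held nothing more, +ND also held dibenzazepine at the 10 µM the labels give (DBZ, a γ-secretase inhibitor that blocks Notch activation), +NF held FGF10 at 100 µg per ml, and +NFD held both. RNA was sequenced from 1 library per medium, so the differences between media lack any replicate check and carry no p-value, and the Jagged1 media +NJ and +NFJ were not analysed here. Whole organoids were sequenced, so fewer cells of a type and less RNA per cell cannot be told apart.

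S100 proteins carry a pair of EF-hand loops, which hold calcium, and mostly act as dimers that dock onto partner proteins once calcium is bound. Most of their genes lie in a cluster on mouse chromosome 3, at the edges of the epidermal differentiation complex, the stretch that also holds the loricrin, Sprr, Lce and filaggrin genes of the cornified layer. In skin and oral epithelium several S100 proteins mark differentiating or stressed keratinocytes, and S100a8 and S100a9 together form calprotectin, a protein of neutrophils and inflamed epithelium that binds zinc and manganese.

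Values are FPKM, the number of sequenced fragments scaled to transcript length and library size. Levels of different genes are set side by side on this scale only roughly. For short transcripts such as S100 mRNAs, FPKM depends on how effective length was computed. A difference between media is given as log2((FPKM + 1)/(FPKM + 1)), which understates the difference of low genes, and a gene is counted at 2-fold, that is, at a log2 ratio of 1 or -1. A gene entered a comparison if its higher value reached an FPKM of 1. Their median log2 ratio was 0.10 in +ND, 0.12 in +NF and 0.18 in +NFD relative to +N, 0.048 in +NFD relative to +NF, and 0.094 in +NFD relative to +ND. All 10 S100 genes reached an FPKM of 1 in all 4 libraries, and none of the 10 symbols had more than 1 entry. The +ND library was the shallowest, at about 0.764 times the depth of +N by the smallest steps between low values, and +NF and +NFD were close to +N. Epithelial markers were high in all 4 libraries, with Krt5 at 4984 to 6582 FPKM and Krt14 at 5530 to 12652, and all 10 genes of the epithelial list reached an FPKM of 1.

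S100a11, S100a6 and S100a10 were the most abundant S100 transcripts and differed least between media. S100a11, a partner of annexin A1, was at 6574 FPKM under +N, 4393 under +ND, 6077 under +NF and 4332 under +NFD. S100a6 (calcyclin), a partner of the ubiquitin-ligase adaptor Cacybp, was at 6272, 3607, 5678 and 4907 FPKM over those media. Among all genes, S100a11 ranked between 5 and 8 and S100a6 between 6 and 8 in every library, and both were highest in +N. S100a10, which has lost calcium binding and forms a complex with annexin A2, was at 1436 FPKM under +N, 1032 under +ND, 1506 under +NF and 1057 under +NFD. For S100a6, S100a10 and S100a11 alike, both media with DBZ were below both media without it. S100a11 (93520488 to 93526287) and S100a10 (93555080 to 93564643) lie apart from the other 8 genes on chromosome 3 of GRCm38, while S100a6 (90612882 to 90624181) lies among them. Together these 3 genes made up 83.3% of the summed FPKM of the 10 genes under +N, 86.2% under +ND, 90.3% under +NF and 91.1% under +NFD. The sum itself was 17137 FPKM under +N, 10484 under +ND, 14678 under +NF and 11298 under +NFD.

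**Figure D1:**
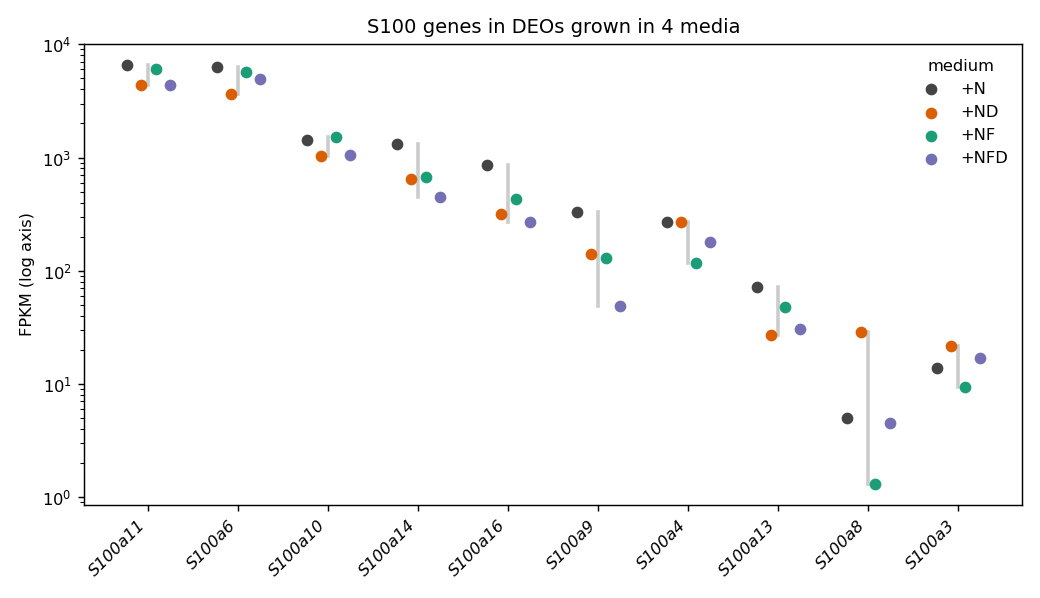
FPKM (log axis) of the 10 S100 genes, ordered by their highest value, with 1 point per library, coloured by medium, and a grey bar from lowest to highest. S100a8 spans the widest range, from 1.31 FPKM in +NF to 28.9 in +ND, while S100a6, S100a10 and S100a11 span less than 2-fold.

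In +ND relative to +N, 1 of the 10 genes, S100a8, was at least 2-fold higher, against 5.88% of all 13173 genes compared, and 4 were at least 2-fold lower, S100a9, S100a13, S100a14 and S100a16, against 5.29%. In +NF relative to +N, no S100 gene was 2-fold higher, against 2.76% of all genes, and 3 were 2-fold lower, S100a4, S100a8 and S100a9, against 2.44%. In +NFD relative to +N, no S100 gene was 2-fold higher, against 5.85%, and the same 4 genes as in +ND were 2-fold lower, against 4.03%. With DBZ added to FGF10, +NFD relative to +NF, S100a8 was 2-fold higher, against 3.72%, and S100a9 was 2-fold lower, against 2.69%. With FGF10 added to DBZ, +NFD relative to +ND, none was 2-fold higher, against 3.39%, and S100a8 and S100a9 were 2-fold lower, against 3.11%. The first 3 comparisons share the +N library, so a high value there enters all of them. The median log2 ratio of the 10 genes was -0.69 in +ND, -0.76 in +NF and -0.59 in +NFD relative to +N, -0.50 in +NFD relative to +NF and -0.29 in +NFD relative to +ND. The highest of the 4 values was in +N for 6 genes, in +ND for 3 and in +NF for 1, and never in +NFD. This count includes close values. Relative to +N, S100a4 had a log2 ratio of 0.01 in +ND, or -0.10 when centred. S100a10 had 0.07 in +NF, or -0.05 when centred.

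**Figure D2:**
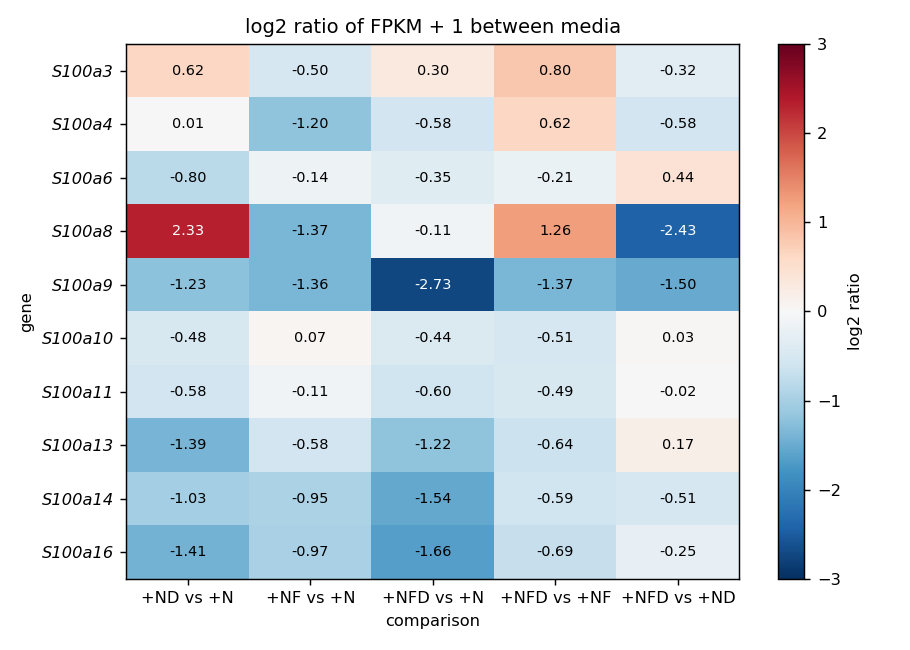
log2 ratios of FPKM + 1 (colour and number) of the 10 S100 genes, as rows, in the 5 comparisons between media, as columns, with 1 library per medium. S100a9 is below -1 in all 5 columns, and S100a8 changes colour between the columns, from 2.33 in +ND vs +N to -2.43 in +NFD vs +ND.

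S100a8 and S100a9, the calprotectin genes, had different patterns although their proteins pair and their genes are neighbours. S100a8 was at 4.96 FPKM under +N, 28.9 under +ND, 1.31 under +NF and 4.52 under +NFD. Its FPKM in +ND was 5.82 times that in +N, and its FPKM in +N was 3.79 times that in +NF. S100a8 was thus highest with DBZ alone, lowest with FGF10 alone and near its +N level with both. S100a9 was at 333 FPKM under +N, 141 under +ND, 129 under +NF and 49.3 under +NFD, so that it was highest in +N and lowest with both additions. The log2 ratio of S100a9 relative to +N was -1.23 in +ND, -1.36 in +NF and -2.73 in +NFD. S100a9 was more abundant than S100a8 in every library, by 67.2-fold in +N, 4.90-fold in +ND, 98.5-fold in +NF and 10.9-fold in +NFD.

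The low S100a8 values rest on few fragments. With its longest coding transcript of 486 nt, the smallest steps between low values put the +NF value at about 18 fragments, with an exact Poisson 95% interval of 0.775 to 2.07 FPKM. The interval was 3.85 to 6.28 FPKM in +N, 25.7 to 32.3 in +ND and 3.46 to 5.81 in +NFD. These intervals cover counting error only, and the fragment numbers are upper estimates, since short transcripts offer fewer fragment positions than their length. By counting error the values in +N and +NFD overlapped, and those in +ND and +NF lay apart from them and from each other.

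S100a8 lies on chromosome 3 of GRCm38 from 90668978 to 90670035 on the forward strand, and S100a9 from 90692632 to 90695721 on the reverse strand, with 22596 bases between them. The 250 bases before each start site in RefSeq (GRCm38.p6) are shown because the pair had unlike patterns. For S100a8 that start site lies inside the span given here, so the last part of its stretch overlaps the span. Capitals mark matches, on either strand, to letters of 4 motifs: TGANTCA of AP-1, TGGGAA of RBPJ (the DNA-binding partner of activated Notch), TTGCNNAA of C/EBP, and the TATA box letters TATAAA. The S100a8 stretch is chr3:90668821-90669070, forward strand, and the S100a9 stretch is chr3:90695722-90695971, read on the reverse strand.
S100a8: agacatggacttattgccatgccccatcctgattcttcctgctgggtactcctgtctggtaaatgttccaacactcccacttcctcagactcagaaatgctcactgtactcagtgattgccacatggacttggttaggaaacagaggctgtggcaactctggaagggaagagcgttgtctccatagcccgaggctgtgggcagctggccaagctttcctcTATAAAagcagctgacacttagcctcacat
S100a9: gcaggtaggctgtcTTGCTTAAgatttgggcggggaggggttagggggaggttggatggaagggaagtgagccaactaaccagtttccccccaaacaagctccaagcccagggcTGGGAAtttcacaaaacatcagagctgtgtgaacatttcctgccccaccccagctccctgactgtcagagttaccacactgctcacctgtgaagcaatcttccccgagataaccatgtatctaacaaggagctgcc

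The S100a8 stretch holds TATAAA from position -30 of the RefSeq start site, inside the gene's annotated span, and no match to the other 3 motifs. The S100a9 stretch holds the C/EBP letters from position -236 and the RBPJ letters from -136, counted from the start site. Promoter windows of 300 bases, 250 before and 50 after a start site, were found for 8 of the 10 S100 genes, and those of S100a10 and S100a14 were not. Over these windows, RBPJ letters were in those of 5 genes (S100a3, S100a4, S100a6, S100a9 and S100a16), TATAAA in 4 (S100a3, S100a4, S100a8 and, at position 1, S100a9), AP-1 letters in 2 (S100a11 and S100a16) and C/EBP letters in S100a9 alone. Among all 32851 windows of the same length, 25.6% held the RBPJ letters, 13.6% TATAAA, 7.81% the AP-1 letters and 10.8% the C/EBP letters. S100a3 has 4 such windows and S100a16 has 2, which gives them more chances of a match, and a match describes letters only.

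Markers of cells that carry calprotectin outside the epithelium were set beside these values. Of 12 neutrophil genes, 5 (Mpo, Elane, Camp, Ngp and Retnlg) were listed at 0 in all 4 libraries, and Ly6g was at most 0.240 FPKM. The 3 that reached an FPKM of 1, Ltf, Mmp9 and Itgam, are not specific to neutrophils, and they set the list's summed FPKM of 431 under +N, 93.4 under +ND, 601 under +NF and 196 under +NFD. Ltf, which encodes the secreted iron-binding lactoferrin, was at 246 FPKM under +N, 5.45 under +ND, 199 under +NF and 8.90 under +NFD. Macrophage markers were present, and all 12 reached an FPKM of 1. Their summed FPKM, of which Lyz2 was the largest part, was 767 under +N, 617 under +ND, 556 under +NF and 492 under +NFD. The order of these sums was that of S100a9, in which +ND at 141 FPKM and +NF at 129 were close. Lyz2 had this order too, and 0 of the other 11 markers had it. Those 11 summed to 239 FPKM under +N, 209 under +ND, 184 under +NF and 204 under +NFD. The highest sum of the 12 was 1.56 times the lowest. The part of macrophage transcripts in the S100a9 values was not tested.

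S100a8 was set beside 12 suprabasal keratinocyte genes, such as Lor and Krt13, some of which lie on chromosome 3 near S100a8. Of the 12 in +ND relative to +N, 8 were at least 2-fold higher, against 5.88% of all genes compared. In the same comparison 3, Krt10, Krt4 and Krt13, were 2-fold lower, against 5.29%. In +NF relative to +N, 8 of 11 were 2-fold lower, against 2.44%, and none was 2-fold higher, against 2.76%. In +NFD, 10 of 12 were 2-fold higher relative to +NF, against 3.72%, and 9 of 12 were 2-fold lower relative to +ND, against 3.11%. Some of these genes passed the filter only through their higher library, and among genes that reached an FPKM of 1 in both libraries the counts were 7 higher and 3 lower of 11 in +ND, 7 lower of 10 in +NF, and 8 higher of 10 and 9 lower of 12 in +NFD relative to +NF and +ND. S100a8 was past 2-fold upwards in +ND relative to +N and in +NFD relative to +NF, and downwards in +NF relative to +N and in +NFD relative to +ND. In +NFD relative to +N, 5 of the 12 were 2-fold higher, against 5.85% of all genes, and 4 were 2-fold lower, against 4.03%. S100a8 had a log2 ratio of -0.11 there.

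S100a13, S100a14 and S100a16, neighbours at 1 end of the cluster, were highest in +N and more than 2-fold lower in both media with DBZ. S100a13, whose protein helps FGF1 and interleukin-1α leave the cell without a signal peptide, was at 72.5 FPKM under +N, 27.1 under +ND, 48.3 under +NF and 30.7 under +NFD. S100a14, expressed mainly in epithelia, was at 1310, 641, 678 and 451 FPKM over those media. S100a16 was at 850, 320, 434 and 269 FPKM, so that all 3 genes were at their highest in +N. S100a14 spans 90526856 to 90528837 and S100a16 spans 90537254 to 90543151, both on the forward strand downstream of S100a13. The log2 ratio relative to +N was between -1.03 and -1.41 for the 3 genes in +ND, between -0.58 and -0.97 in +NF, and between -1.22 and -1.66 in +NFD. In +NF, S100a14 at -0.95 and S100a16 at -0.97 were just inside 2-fold, and with ratios centred on their median both were past it, at -1.07 and -1.08.

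Some epithelial markers were lower in the same media. Of the 10, Krt14, Epcam and Cdh1 were at least 2-fold lower in +ND than in +N, against 5.29% of all genes compared. In +NFD relative to +N, Krt14, Krt15, Cdh1 and Lama3 were 2-fold lower, against 4.03%, and Itgb4 was 2-fold higher, against 5.85%. The E-cadherin gene Cdh1 stood at 163 FPKM under +N, 68.0 under +ND, 120 under +NF and 74.7 under +NFD. Trp63, Itgb4 and Cdh3 were higher in +ND than in +N, with log2 ratios of 0.90, 0.26 and 0.06, and the others were lower. The list's summed FPKM was 20906 under +N, 12029 under +ND, 17178 under +NF and 14266 under +NFD. Krt14 and Krt5 made up most of this sum in every medium, with Krt14 at 12652 FPKM under +N and 5530 under +ND. The part of epithelial content in the S100a13, S100a14 and S100a16 values was not tested.

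S100a1, which lies next to S100a13 and is not among the 10, had a larger difference with DBZ. This gene, known mostly from heart and skeletal muscle, was at 89.2 FPKM under +N, 9.24 under +ND, 48.9 under +NF and 20.3 under +NFD. The order of media was that of S100a13, and the FPKM in +N was 9.65 times that in +ND for S100a1. S100a1 was 1.23 times as high as S100a13 in +N and 0.341 times as high in +ND. The genes point away from each other, S100a1 from 90514392 down to 90511034 on the reverse strand and S100a13 from 90514435 to 90524581 on the forward strand, with 42 bases between their starts. Those bases, chr3:90514393-90514434 on the forward strand in RefSeq's GRCm38.p6, are shown since both starts border them.
Between S100a1 and S100a13: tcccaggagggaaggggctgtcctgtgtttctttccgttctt

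The stretch holds none of the 4 motifs, and neither does either gene's 300-base window. Because the strand setting of the authors' counting is not stated, fragments that cross from one gene's start to the other's cannot be assigned with certainty.

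S100a4 and S100a3 were highest in +ND and lowest in +NF, as was S100a8. S100a4, a partner of non-muscle myosin IIA also used as a fibroblast marker, was at 270 FPKM under +N, 271 under +ND, 117 under +NF and 181 under +NFD. It was lowest in +NF and equal within 1% between +N and +ND. S100a3, a gene of the hair cuticle, was at 13.7 FPKM under +N, 21.6 under +ND, 9.40 under +NF and 17.1 under +NFD. For S100a3 both media with DBZ were above both media without it, with log2 ratios of 0.62 in +ND relative to +N and 0.80 in +NFD relative to +NF, short of 2-fold. The annotated span of S100a3, from 90560578 to 90602702, contains S100a2 and overlaps the short entry Gm23464 and Gm42674, which also overlaps S100a4, so their fragments may be shared.

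Fibroblast markers were set beside S100a4. The summed FPKM of 10 fibroblast genes, among them Col1a1, Pdgfra and Thy1, was 256 under +N, 229 under +ND, 160 under +NF and 591 under +NFD. In +NFD relative to +N, 8 of the 10 were at least 2-fold higher, against 5.85% of all genes compared. Among those that reached an FPKM of 1 in both libraries it was 6 of 7, while S100a4 had a log2 ratio of -0.58. In +NF, 2 of the 8 that passed the filter were 2-fold lower, against 2.44%, and both the list's sum and S100a4 were at their lowest there. Postn, Col1a1 and Col1a2 made up most of that sum in every medium. Pdgfra and Thy1 were instead lowest in +N, at 0.675 and 0.0769 FPKM against 1.53 and 0.325 in +NF, and the others were lowest in +NF. The part of fibroblast transcripts in the S100a4 values was not tested.

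The DBZ comparison can be made both without FGF10 and with it, in pairs of libraries that have none in common. All 10 S100 genes had the same sign in both pairs, although S100a4 was at only 0.01 without FGF10, below the all-gene median of 0.10. S100a9 had nearly the same log2 ratio with DBZ in both, -1.23 without FGF10 and -1.37 with it. S100a8 had 2.33 and 1.26, a difference of -1.07, which was -0.75 with no pseudocount. For the other 8 genes the ratio with FGF10 minus the ratio without it was between -0.03 for S100a10 and 0.75 for S100a13, the latter 0.76 with no pseudocount. With 1 library per medium these differences were not tested.

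**Figure D3:**
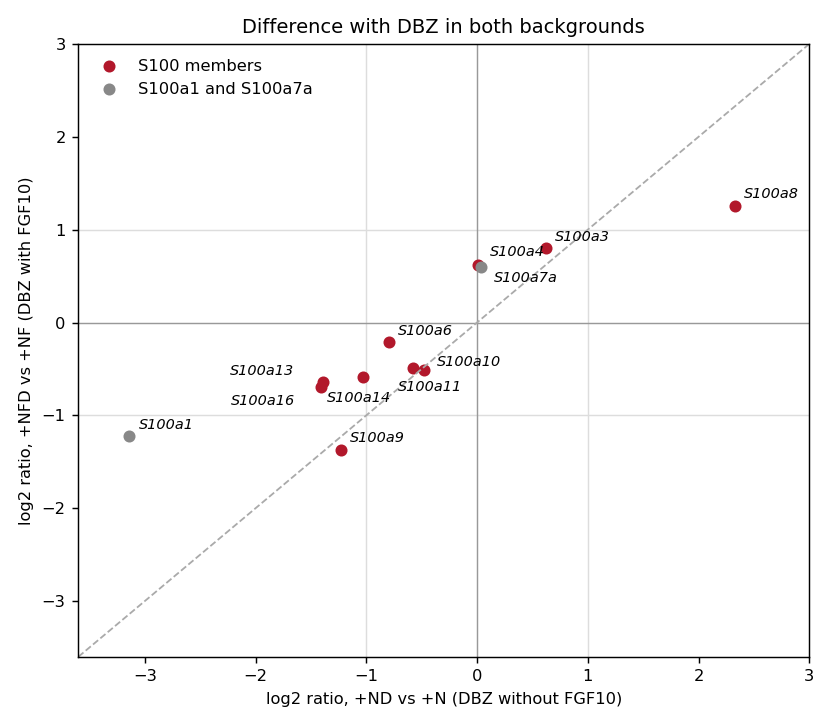
log2 ratio with DBZ in the absence of FGF10 (x axis, +ND vs +N) and in its presence (y axis, +NFD vs +NF) for the 10 S100 genes (red) and for S100a1 and S100a7a (grey), with equal values on the dashed line and 2-fold at the pale lines. S100a8 lies alone past 2-fold on the upper right, S100a9 lies past 2-fold on the lower left, and S100a13, S100a14 and S100a16 are past 2-fold on the x axis only.

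FGF10 was compared in the same way. Without DBZ, S100a4, S100a8 and S100a9 were past 2-fold, with log2 ratios of -1.20, -1.37 and -1.36. With DBZ, S100a8 was at -2.43 and S100a9 at -1.50, and S100a4 was at -0.58. S100a10 and S100a11 were within 0.12 of zero in both pairs.

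Of the other S100 genes, S100a1, S100a7a and S100a2 reached an FPKM of 1 in some library. S100a7a, the mouse relative of the human psoriasin gene, was at 49.1 FPKM under +N, 50.3 under +ND, 13.7 under +NF and 21.2 under +NFD. Its pattern had the order of S100a4, with +N and +ND alike and +NF lowest. S100a2 was at 1.16 FPKM under +N, 0.288 under +ND and 0.708 under +NF and was listed at 0 under +NFD, each value standing for about 10 fragments or fewer. S100a5, S100b, S100g and S100z were at most 0.568 FPKM in any library. S100b, the S100 gene of glia and melanocytes, was at most 0.129 FPKM, and of 8 Schwann cell and melanocyte markers only Mbp reached an FPKM of 1, with Sox10 and Dct listed at 0 throughout.

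The genes between S100a9 and S100a11 on chromosome 3, a stretch of 2.82 Mb with the Sprr, Lce and filaggrin genes, were set beside the S100 genes at both of its edges. In +ND relative to +N, 29 of the 41 symbols of this stretch that reached an FPKM of 1 in both libraries were at least 2-fold higher and none was 2-fold lower. A further 13 reached it only in +ND, so that they could only be higher, and 2 only in +N. On the filter used for all genes, 41 of 56 were 2-fold higher, against 5.88% of all genes, and none was 2-fold lower, against 5.29%. Of the 10 S100 genes, 8 lie in the 185 kb from S100a1 to S100a9 and 2 in the 44.2 kb from S100a11 to S100a10. In +NF relative to +N, 20 of the 27 symbols between them that reached an FPKM of 1 in both libraries were 2-fold lower, and 16 more reached it only in +N. On the filter used for all genes, 34 of 43 were lower, against 2.44% of all genes. In +NFD relative to +N, 25 of 41 that reached it in both libraries were 2-fold higher and 5 were 2-fold lower. On the filter used for all genes, 33 of 52 were higher, against 5.85%, and 7 were lower, against 4.03%. S100a8 was the only S100 gene of the 10 that was 2-fold higher in +ND. This stretch was chosen after values were seen, and its difference from the S100 genes was not tested.

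**Figure D4:**
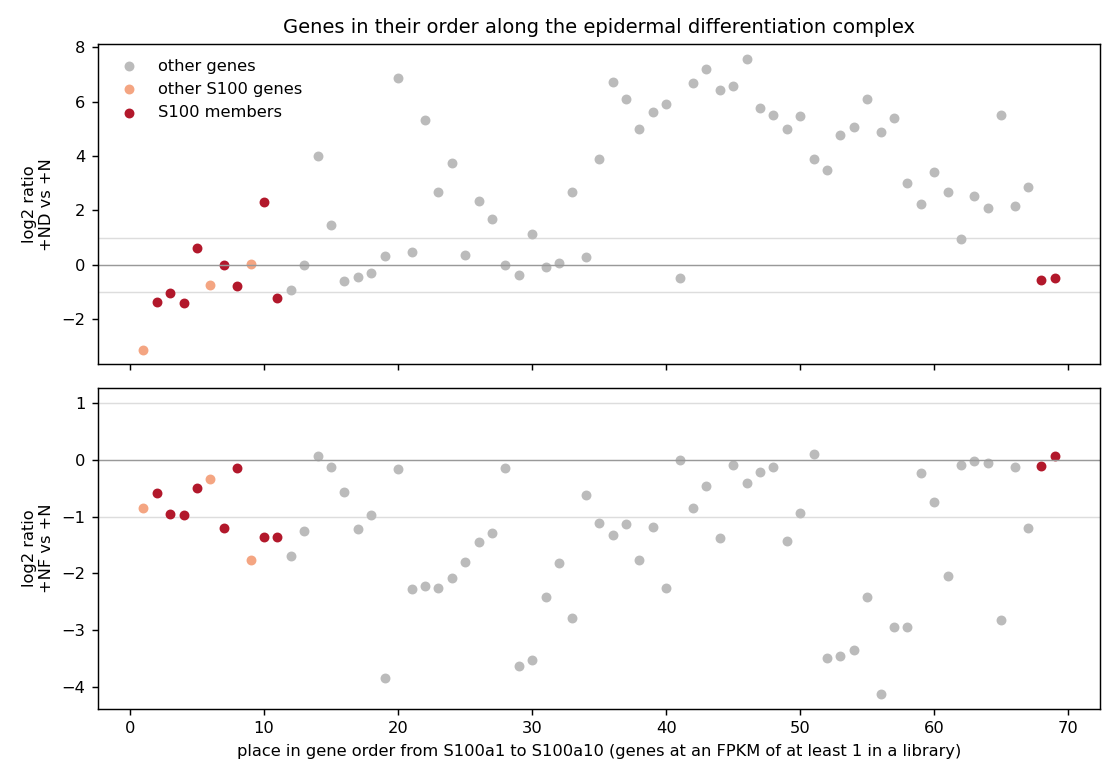
log2 ratio in +ND vs +N (upper panel) and +NF vs +N (lower panel) for genes in their order from S100a1 to S100a10, with the 10 S100 genes in red, other S100 genes in pale orange and all other genes in grey. Grey points between the red edges reach ratios above 5 in the upper panel, where S100a8 at 2.33 is the one red point past 2-fold upwards.

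Within that stretch lie 7 fused genes, which join an S100-type domain to long repeats and encode proteins of the cornified layer and hair follicle. In +ND relative to +N, the 5 that reached an FPKM of 1 in both libraries were all at least 2-fold higher. Hrnr passed the filter only through +ND, at 4.85 FPKM against 0.0242 in +N. With Hrnr, 6 of 6 were 2-fold higher, against 5.88% of all genes compared. Flg2 was at most 0.0320 FPKM and was not compared. Rptn, which encodes repetin, was at 13.8 FPKM under +N, 681 under +ND, 1.09 under +NF and 244 under +NFD. Flg, which encodes profilaggrin, was at 8.36 FPKM under +N, 58.1 under +ND, 1.28 under +NF and 23.3 under +NFD, and Crnn, Tchh, Tchhl1 and Hrnr were also highest in +ND. In +NFD relative to +N, 5 of the 5 that passed were 2-fold higher, against 5.85%, although Tchhl1 was at 1.05 and came to 0.87 with centred ratios. In +NF relative to +N, 3 of 5 were 2-fold lower, against 2.44%. The order of media for Rptn and Flg was +ND, +NFD, +N, +NF. For S100a8, +ND was also highest and +NF lowest, while +N at 4.96 FPKM and +NFD at 4.52 overlapped by counting error.

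Of 33 genes for S100 partners and receptors, 26 passed the filter in +ND relative to +N. Of these, 3 were at least 2-fold higher, against 5.88% of all genes compared, and 5 were 2-fold lower, against 5.29%. Padi3, at 0.417 FPKM in +N, passed only through +ND, so it could only be higher. Fgf1 and Tgm2, at 0.631 and 0.761 FPKM in +ND, passed only through +N, so they could only be lower. In +NF relative to +N, 1 of 26 was 2-fold higher, against 2.76% of all genes, and none was 2-fold lower, against 2.44%. In +NFD relative to +N, 3 of 27 were higher, against 5.85%, and 4 were lower, against 4.03%. Padi3 passed the filter there only through +NFD. The annexins that dock to S100a10 and S100a11 were abundant. Anxa2 was at 1401 FPKM under +N, 797 under +ND, 1161 under +NF and 809 under +NFD, and the ratio of Anxa2 to S100a10 was 0.975 in +N and between 0.765 and 0.772 in the other 3 media. Anxa1 was at 2542, 1952, 1459 and 1238 FPKM over those media, and only its ratio of +NFD to +N, -1.04 on the log2 scale, was past 2-fold. Ahnak, a giant scaffold protein that binds the S100a10-annexin A2 complex, was at 40.0 FPKM in +N and 16 in +ND, a log2 ratio of -1.27.

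Fgf1, whose export involves S100a13, was at 10.0 FPKM under +N, 0.631 under +ND, 8.70 under +NF and 1.15 under +NFD. The values in both media with DBZ were below those in both media without it, as for S100a13. The second S100a13 client, Il1a, was at 71.6, 68.4, 55.6 and 55.1 FPKM and within 2-fold throughout. Padi3, which modifies S100a3, was low, at 0.417 FPKM under +N, 2.09 under +ND, 1.54 under +NF and 2.04 under +NFD, and was past 2-fold in both media with DBZ relative to +N, although only in +ND with centred ratios. Cacybp was at 33.4 FPKM in +N and 57.5 in +ND, and Myh9, the myosin partner of S100a4, was between 31.5 and 40.9.

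Of the receptors of extracellular S100 proteins, Ager and Tlr4 were low and Alcam was past 2-fold in both media with DBZ relative to +N. Ager, the receptor for advanced glycation end products, was at 1.67 FPKM under +N, 0.432 under +ND, 1.29 under +NF and 1.50 under +NFD. Tlr4, a receptor for calprotectin, was at most 1.92 FPKM and lowest, at 0.877, in +NFD. Bsg, which encodes the S100a9-binding surface protein basigin, was between 497 FPKM in +ND and 905 in +NF. Alcam, a surface adhesion protein also reported to bind S100 proteins, was at 32 FPKM under +N, 2.29 under +ND, 21.9 under +NF and 3.52 under +NFD, with log2 ratios of -3.32 in +ND and -2.87 in +NFD. Other partners past 2-fold in some comparison were Plat, Myh10, Myh14, Tgm2 and Anxa6. Plat, which encodes tissue plasminogen activator, was at 4.0 FPKM under +N, 13.6 under +ND, 5.15 under +NF and 12.5 under +NFD.

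Among 10 other EF-hand and calcium-handling genes, 6 reached an FPKM of 1 in a library, and 2 of these were past 2-fold in some comparison. In +NFD relative to +N, 1 of 6 was 2-fold higher, against 5.85% of all genes, and 1 was 2-fold lower, against 4.03%. Calml3, a calmodulin-like gene of stratified epithelia, was at 199 FPKM under +N, 13.7 under +ND, 22.7 under +NF and 6.68 under +NFD, and thus, like S100a9, highest in +N and lowest with both additions. Calb1, which encodes calbindin, was at 2.29 FPKM in +NFD and at most 0.0351 in the other 3 libraries. It passed the filter only through +NFD, so it could only be higher there.

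Genes whose 4 log2(FPKM + 1) values came nearest to those of an S100 gene, after subtracting each gene's mean, were sought among all genes that reached an FPKM of 5 in a library. The distance is Euclidean, on the log2 scale, over 4 libraries only, and describes these libraries. The nearest to S100a8 was Sprr2i, a small proline-rich protein gene of the cornified envelope, at 4.39 FPKM under +N, 26.3 under +ND, 0.974 under +NF and 4.90 under +NFD, at a distance of 0.24. Next came Dsg1a, a desmosomal cadherin of suprabasal layers, at 0.45 and Igfbp3 at 0.47. Nearest to S100a9 were Mal2 at 0.21, Atp13a4 at 0.22 and Ighm, the immunoglobulin M heavy chain gene, at 0.27. Ighm was at 7.93 FPKM in +N and 0.278 in +NFD, where S100a9 was at 333 and 49.3. The added 1 narrows the ratio of such low values and so shortens the distance. Asah2, which encodes neutral ceramidase, was nearest to S100a13 at 0.018, with 29.3 FPKM under +N, 10.8 under +ND, 19.6 under +NF and 12.1 under +NFD, followed by Ankrd50 at 0.095 and Ccdc12 at 0.11. Acp5, which encodes tartrate-resistant acid phosphatase, was nearest to S100a14 at 0.078, followed by Chl1 at 0.10 and Bcl2a1b at 0.13. Aim1l at 0.18, Kctd1 at 0.18 and the claudin gene Cldn23 at 0.19 were nearest to S100a16, and Cldn23 was also low, at 5.98 FPKM in +N and 0.859 in +NFD. Ephx4 at 0.065, Gch1 at 0.16 and Cysrt1 at 0.18 were nearest to S100a4. Epn3 at 0.079, Wnt10a, a Wnt ligand known from tooth development, at 0.086, and the anchoring-fibril collagen gene Col7a1 at 0.11 were nearest to S100a3. S100a6, S100a10 and S100a11 spanned less than 2-fold and were left out.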

How the data were processed

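Per the labels and the study's methods, the authors used FastQC 0.11.9 for read quality, Trim Galore 0.6.5 for trimming, TopHat2 2.1.1 for alignment against GRCm38 and Cufflinks for abundance. The deposited values are FPKM, 1 column per library. The annotation release, strand setting and Cufflinks options are not given in the sources used here. FPKM of short transcripts such as S100 mRNAs depends on how effective length was computed, and a few abundant transcripts lower all other values of a library.

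Entries with the same symbol were summed (123 symbols). In each of 5 comparisons, log2 ratios of FPKM + 1 were taken where the higher value reached an FPKM of 1, and counted at 2-fold. No test was made. Depth was approximated from the steps between low FPKM values of 8367 genes with a single GENCODE M21 transcript of at least 1000 nt; the steps were blurred, so fragment numbers are approximate. Promoter sequences are RefSeq's (GRCm38.p6). The S100 genes and all lists (other S100 genes, fused genes, partners and receptors, EF-hand genes, and markers of epithelium, neutrophils, macrophages, fibroblasts, Schwann cells and melanocytes, and suprabasal keratinocytes) were written from general knowledge, with earlier results of these data known. Named genes are the 10 S100 genes, other S100 genes, direct partners, list members past 2-fold, and the 3 genes nearest in pattern. The computations were tested on simulated data. The alternatives tried were a pseudocount of 0.1 or none, omitting the filter or raising it to 5 FPKM, scaling to the upper quartile, centring on the median, and keeping the highest entry per symbol. Software was Python 3.11.15, matplotlib 3.10.9, scipy 1.17.1, pandas 2.3.3 and numpy 2.4.6.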

Additional observations from a re-analysis of the deposited data

Results flagged for a closer look

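FGF10 went with opposite signs in the absence and presence of DBZ for 3 S100 genes, and this difference was not tested, since each medium has 1 library. S100a6 had a log2 ratio of -0.14 in +NF relative to +N and 0.44 in +NFD relative to +ND. S100a13 had -0.58 and 0.17 in the same order. S100a1 had -0.85 and 1.06, of which the second was 0.96 with centred ratios.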

How the results depend on the processing

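No paired analysis was possible because each medium has 1 library and no test was made. Of 347 ratios of the 10 S100 genes recomputed under the 7 alternatives, 343 stayed on the same side of 2-fold, 4 did not, and none past 2-fold changed sign. The 4 were S100a14 and S100a16 in +NF relative to +N, which passed 2-fold after scaling to the upper quartile and after centring, so that 5 S100 genes were at least 2-fold lower under either. With a filter at an FPKM of 5, S100a8 was not compared between +NFD and +NF, and 0 S100 genes were 2-fold higher there. The same filter took S100a8 out of +NF and +NFD relative to +N, which left 2 of the 3 S100 genes that were 2-fold lower in +NF. Among other named genes, calls were lost with centring for Padi3 (0.93) and Tchhl1 (0.87) in +NFD relative to +N and for S100a1 (0.96) and Anxa6 (0.95) in +NFD relative to +ND, and with upper-quartile scaling for Tchhl1 (0.95). Centring moved the split of all genes at 2-fold from 774 higher and 697 lower to 615 and 842 in +ND, from 361 and 319 to 248 and 412 in +NF, and from 782 and 538 to 540 and 714 in +NFD, each relative to +N, and from 450 and 414 to 345 and 506 in +NFD relative to +ND. S100a8 in +NF and S100a2 rest on few fragments, and culture-to-culture variation was not measured.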
